A study of Homo sapiens with 6 samples.

Results

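The protein kinase C (PKC) and protein kinase D (PKD) isoforms are 10 of the 11963 genes that the platform annotation names by a single symbol on these arrays. They are PRKCA, PRKCB, PRKCD, PRKCE, PRKCH, PRKCI and PRKCZ of the PKC family and PRKD1, PRKD2 and PRKD3 of the PKD family. They were taken by gene symbol alone, with every probe set that carries that single symbol, which gave 20 of 22215 probe sets. RNA came from NCI-H295A, an established human adrenocortical carcinoma line kept in low-serum medium that contained insulin and selenium. The 8-Br-cAMP group holds 3 samples incubated with the cell-permeable cAMP analogue at 1 mM for 18 h, and the control group holds 3 samples without it. The treatment label says cAMP and the growth protocol says 8-Br-cAMP. Each sample was hybridised to 1 Affymetrix array. Whether the plates of a group were independent cultures is not stated, and a p-value here reflects no more than the scatter of these 6 samples, part or all of which may be technical.

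PKC and PKD are serine/threonine kinases that carry the signal of receptors coupled to Gq. Such receptors activate phospholipase C, which splits a membrane lipid into inositol trisphosphate, which releases calcium, and diacylglycerol. The conventional isoforms, PKC alpha and beta, need calcium and diacylglycerol. PKC delta, epsilon and eta need diacylglycerol but no calcium, and the atypical isoforms, PKC iota and zeta, need neither. The PKDs bind diacylglycerol and are switched on when a PKC of that second kind phosphorylates their activation loop. In the adrenal cortex angiotensin II uses this route, while ACTH uses cAMP and protein kinase A.

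The actin 3'/5' signal ratio, which climbs as RNA breaks down, was 38.8 on 8-Br-cAMP sample 1 and 5.72 on control sample 1, against 1.93 to 2.41 on the other 4 arrays. The log2 signals of 8-Br-cAMP sample 1 correlated at 0.776 and 0.779 with 8-Br-cAMP samples 2 and 3, which correlated at 0.980 with each other. The kept PKC and PKD probe sets are therefore given with and without the number 1 arrays. How far RNA breakdown entered the results was not tested. Of the adrenocortical markers 10 of 12 were measured and all 10 lay above the filter level. Their summed signal was 28309.7 to 60447.5 after 8-Br-cAMP and 8395.6 to 28615.7 in controls, highest in each group on the number 1 array. Each of them but NR5A1 and MC2R read higher than its same-numbered control on every 8-Br-cAMP array. Markers of adrenal medulla summed to 172.7 to 292.9 after 8-Br-cAMP and 164.7 to 318.6 in controls, and those of blood cells to 113.2 to 191.3 and 108.9 to 128.6. Endothelial markers summed to 304.7 to 419.4 after 8-Br-cAMP and 183.4 to 231.4 in controls, and fibroblast markers to 352.5 to 448.1 and 529.5 to 1186.8. Only 2 of 5 and 2 of 6 of these were kept, and they did not all move one way. VWF read 224.5 to 292.3 after 8-Br-cAMP and 13.2, 17.8 and 123.8 in controls. Its control mean log2 signal lay under the filter level, so VWF was kept through its treated arrays alone and its values are a description. TEK, not kept, went the other way, at 11.3 to 20.7 after 8-Br-cAMP and 60.7 to 106 in controls. COL3A1 read 194.6 to 227.6 after 8-Br-cAMP and 393.9 to 879.2 in controls, while COL1A1 overlapped (102.6 to 145.1 and 96 to 167.4). In bulk RNA, fewer cells of a type and less RNA per cell cannot be told apart.

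Of the 20 probe sets, 12 passed the signal filter, a mean log2 signal above 5.51, or a signal of 45.5. They stood for 8 genes. PRKCD and PRKCE had no kept probe set. The PRKCH probe set 218764_at is the 1 of the 12 kept through its controls alone, since its treated mean lay under the filter level. It had to differ to be kept, so the counts that hold it are descriptions. A level is comparable only within a probe set, so no isoform is ranked above another. None of the 12 kept probe sets passed limma at an adjusted p under 0.05, either without a block or in the paired fit, which has the sample number as a block. Over all 13329 kept probe sets, 0% passed without the block and 3.21% in the paired fit. At an unadjusted p under 0.05, 3 of the 12 differed without the block (11.1% of all) and 5 of the 12 in the paired fit (21.3% of all). Groups did not overlap in 2 of the 12, 1 higher and 1 lower after 8-Br-cAMP, against 6.02% higher and 12.5% lower over all. All 3 pairs had the same sign in 7 of the 12, against 44.1% of all. The median log2 difference of the 12 was -0.35, beside -0.13 over all kept probe sets.

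**Figure D1:**
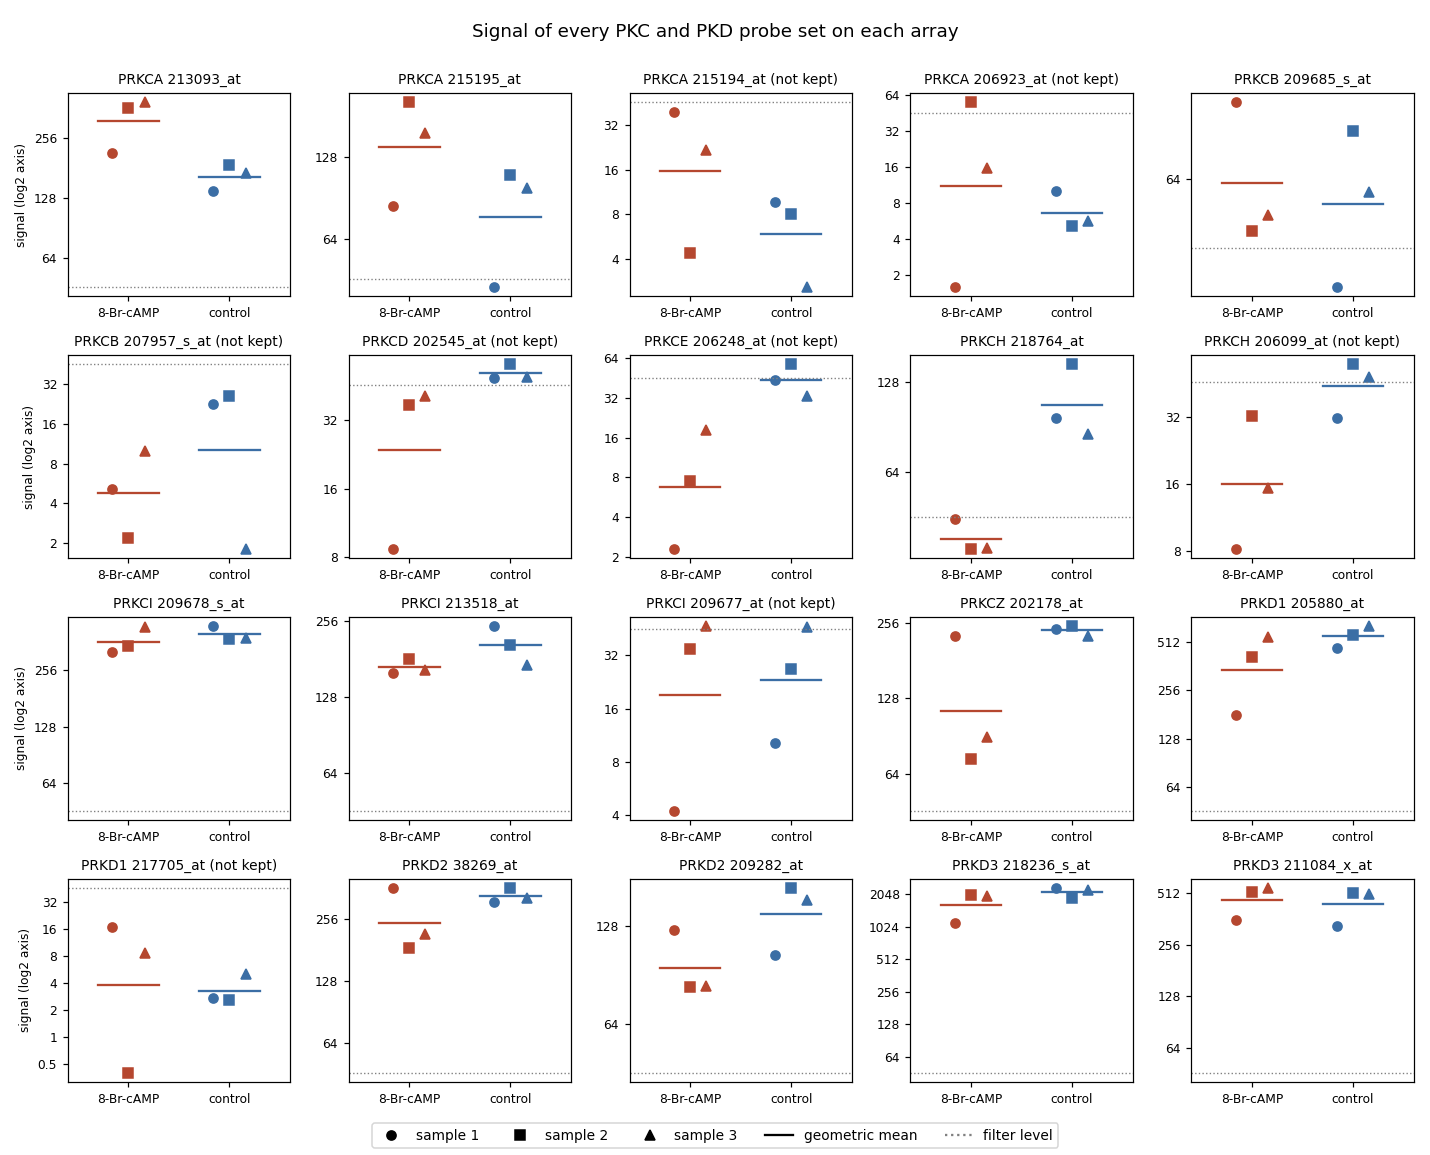
Signal of each of the 20 PKC and PKD probe sets on each array, on a log2 axis, with 8-Br-cAMP left of control and a horizontal bar at the geometric mean of 3 arrays. The dotted line is the filter level of 45.5; the PRKCA probe set 213093_at lies higher on all 8-Br-cAMP arrays and the PRKCH probe set 218764_at lower on all of them, while the PRKCZ signal of 8-Br-cAMP sample 1 stays near the controls.

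PRKCA encodes the conventional isoform PKC alpha, and both of its kept probe sets read higher after 8-Br-cAMP in each pair. Its probe set 213093_at read 214.7, 362.6 and 388.3 on 8-Br-cAMP samples 1, 2 and 3, against 137.8, 187.1 and 170.2 on the controls. Every treated array lay above every control array, and the lowest treated value belonged to sample 1. The mean log2 signal was 8.28 ± 0.47 after 8-Br-cAMP and 7.36 ± 0.23 in controls (SD, n = 3 each). The log2 difference of 0.93, or 1.90-fold, had a limma 95% interval of 0.19 to 1.67, with an adjusted p of 0.331 (unadjusted 0.0211). In the paired fit the adjusted p was 0.0805. The difference was 1.07 (0.73 to 1.42) on samples 2 and 3 alone and passed (limma adjusted p = 0.00145).

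The PRKCA probe set 215195_at read 84.4, 205.3 and 158.0 after 8-Br-cAMP, against 42.3, 109.8 and 98.3 in controls. The groups overlapped, with both number 1 arrays reading low, but each treated array exceeded its same-numbered control. The pair differences were 1.00, 0.90 and 0.68 on the log2 scale, with a mean of 0.86 (95% interval -0.31 to 2.03, limma adjusted p = 0.603). Single arrays moved that mean, to 0.43 without control sample 1 and to 1.23 without 8-Br-cAMP sample 1. It passed on samples 2 and 3 alone (0.79, adjusted p = 0.0271). The other PRKCA probe sets, 206923_at and 215194_at, lay under the filter, at 1.6 to 56.2 and 4.4 to 39.2 after 8-Br-cAMP against 5.2 to 10.1 and 2.6 to 9.7 in controls, and neither had the same sign in all pairs.

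PRKCB encodes PKC beta, the other conventional isoform measured. Its probe set 209685_s_at read 93.4, 49.5 and 53.5 after 8-Br-cAMP, against 37.6, 80.9 and 59.9 in controls. The pairs disagreed in sign. Sample 1 was higher after 8-Br-cAMP by 1.31 on the log2 scale, while pairs 2 and 3 differed by -0.71 and -0.16. The mean difference was 0.15 (95% interval -0.91 to 1.20, limma adjusted p = 0.945), and it turned to -0.44 (-1.25 to 0.38, adjusted p = 0.381) on samples 2 and 3 alone. The second probe set, 207957_s_at, never exceeded 26.1 and is not kept.

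PRKCH, PRKCE and PRKCD encode isoforms that bind diacylglycerol without calcium, and all their probe sets read under the filter level on every 8-Br-cAMP array. PRKCH, which encodes PKC eta, an isoform known from epithelia, read 44.7, 35.5 and 35.8 on its probe set 218764_at after 8-Br-cAMP, against 97.4, 147.2 and 86.2 in controls. The groups did not overlap, and all 3 treated arrays lay under the filter level while no control did. The mean log2 signal was 5.26 ± 0.19 after 8-Br-cAMP and 6.75 ± 0.40 in controls (SD, n = 3 each). The log2 difference was -1.48, with a 95% interval of -2.32 to -0.64 and a limma adjusted p of 0.182 (unadjusted 0.00407). With treated signals so low and the probe set kept through its controls alone, its size is imprecise and its p-values are given as a description. The paired adjusted p was 0.0842. It was -1.66 (-2.52 to -0.79, adjusted p = 0.0123) on samples 2 and 3 alone. The pair differences were -1.12, -2.05 and -1.27, so sample 1 moved as the others did.

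The other PRKCH probe set, 206099_at, read 8.2, 32.2 and 15.4 after 8-Br-cAMP, against 31.6, 55.0 and 47.9 in controls. Its groups overlapped by the narrow margin of 32.2 on 8-Br-cAMP sample 2 over 31.6 on control sample 1. Its log2 difference was -1.45, close to that of the first probe set, and negative in all 3 pairs, but at such signals a fold is imprecise. When no filter was set, its limma adjusted p was 0.601.

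PRKCE, which encodes PKC epsilon, has the single probe set 206248_at. It read 2.3, 7.5 and 18.2 after 8-Br-cAMP, against 43.7, 57.7 and 32.9 in controls. No treated array reached a control array. The log2 difference of -2.68 is the largest in size among the 20 probe sets and also among the least precise, since all 3 treated arrays and 2 of 3 controls lay under the filter level and the treated SD was 1.5 on the log2 scale. It was not tested with the filter. Without a filter the unadjusted p was 0.0121 and the limma adjusted p 0.372.

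PRKCD, which encodes PKC delta, also has a single probe set, 202545_at. It read 8.7, 37.3 and 40.8 after 8-Br-cAMP, against 48.9, 56.3 and 49.6 in controls. The groups did not overlap, but the difference ran from -2.49 in pair 1 to -0.59 and -0.28 in pairs 2 and 3. Without a filter its limma adjusted p was 0.740. Over the 20 probe sets with no filter, groups did not overlap in 3 that were lower (PRKCD, PRKCE and PRKCH) and 1 that was higher (PRKCA), against 10.3% lower and 4.79% higher over all 22215.

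The atypical isoforms were both measured. PRKCI, which encodes PKC iota, a kinase of the cell polarity complex with PAR6 and PAR3, had overlapping groups on its probe sets. Its probe set 209678_s_at read 320.9, 345.6 and 435.9 after 8-Br-cAMP, against 441.7, 377.0 and 382.3 in controls. The log2 difference was -0.13 (95% interval -0.72 to 0.46, limma adjusted p = 0.907), and its sign turned on a scaling to a common median (0.093) and on samples 2 and 3 alone (0.032). The probe set 213518_at read 158.6, 181.4 and 163.9 after 8-Br-cAMP, against 244.2, 205.6 and 171.1 in controls, a difference of -0.29 (-0.89 to 0.31, adjusted p = 0.759). The intervals on samples 2 and 3 alone were -0.32 to 0.38 and -0.55 to 0.30, both short of a 2-fold change. They rest on 2 arrays a group and may measure only technical spread. The third probe set, 209677_at, was under the filter.

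PRKCZ, which encodes PKC zeta, read 226.7, 73.4 and 89.7 on its only probe set, 202178_at, after 8-Br-cAMP, against 242.0, 249.2 and 226.4 in controls. The controls were tightly grouped, with an SD of 0.071 on the log2 scale. On 8-Br-cAMP samples 2 and 3 the signal lay far under every control, but on sample 1 it lay level with the lowest control. The pair differences were accordingly -0.094, -1.76 and -1.34. The mean log2 signal was 6.84 ± 0.87 after 8-Br-cAMP and 7.90 ± 0.071 in controls (SD, n = 3 each), a difference of -1.06 (95% interval -2.09 to -0.034, limma adjusted p = 0.436). The paired adjusted p was 0.156. A single array decided the call. Without 8-Br-cAMP sample 1 the difference was -1.56 and passed (adjusted p = 0.0337), and on samples 2 and 3 alone it was -1.55 (-2.03 to -1.07, adjusted p = 0.00117), a signal 2.93-fold higher in controls. Whether the pairs differ from each other was not tested.

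Promoter windows of the 10 genes, from RefSeq on build GRCh38.p14, were searched for the cAMP response element, the palindrome TGACGTCA bound by CREB and its relatives, and for its shorter core TGACG, which the palindrome contains, on both strands. Each window runs from 250 bases before to 50 after an annotated start, and the genes have 17 windows in all. The palindrome was in 1 of the 17, a window of PRKCZ, against 1.85% of all 35116 windows. The core was in 3 of the 17, 2 of PRKCZ and 1 of PRKD2, against 24.6% of all. PRKCZ has 4 annotated starts, and the arrays do not show which of them NCI-H295A cells use. The windows printed here are those with the palindrome and, for PRKD2, with the core. The remaining PRKCZ window with a core has it 229 bases upstream and is not printed, and no window of PRKCH or of the other members has either motif. In PRKCZ, chr1:2073414-2073713 on the plus strand, the palindrome begins 52 bases upstream of the start and another core follows 43 bases upstream. In PRKD2, chr19:46717065-46717364 on the minus strand, the core begins 49 bases upstream. Capitals mark the palindrome and the cores. A match is a description of the letters and not evidence of binding.
PRKCZ: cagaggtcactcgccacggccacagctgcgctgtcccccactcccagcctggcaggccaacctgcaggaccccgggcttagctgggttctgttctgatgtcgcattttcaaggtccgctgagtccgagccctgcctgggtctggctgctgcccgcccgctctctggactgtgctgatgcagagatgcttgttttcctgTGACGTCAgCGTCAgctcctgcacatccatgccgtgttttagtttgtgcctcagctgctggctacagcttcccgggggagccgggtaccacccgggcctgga
PRKD2: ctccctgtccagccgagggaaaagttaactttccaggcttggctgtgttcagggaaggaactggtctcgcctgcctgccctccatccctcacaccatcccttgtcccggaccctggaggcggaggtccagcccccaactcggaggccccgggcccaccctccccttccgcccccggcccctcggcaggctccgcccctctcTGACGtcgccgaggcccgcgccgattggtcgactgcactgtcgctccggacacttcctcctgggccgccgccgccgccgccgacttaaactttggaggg

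The PKD genes were read on 5 kept probe sets. PRKD2, the kinase of this family known from lymphocyte and endothelial signalling, has kept probe sets in close accord. Its probe set 38269_at read 363.6, 184.7 and 215.5 after 8-Br-cAMP, against 311.6, 360.9 and 324.8 in controls. Samples 2 and 3 were under every control and sample 1 was above them all. Its probe set 209282_at read 124.3, 83.1 and 84.0 after 8-Br-cAMP, against 104.1, 166.9 and 153.4 in controls, again with only sample 1 of the treated arrays above a control. The log2 differences were -0.45 (95% interval -1.19 to 0.30) and -0.54 (-1.30 to 0.22), with limma adjusted p of 0.692 and 0.619. Restricted to samples 2 and 3 they were -0.78 (-1.14 to -0.41, adjusted p = 0.00784) and -0.94 (-1.43 to -0.44, adjusted p = 0.0128). The pattern over pairs, 0.22, -0.97 and -0.59 on one probe set and 0.26, -1.01 and -0.87 on the other, had pairs 2 and 3 under 0 and pair 1 above it. Single arrays moved the first of these means, to -0.25 without 8-Br-cAMP sample 2 and to -0.73 without 8-Br-cAMP sample 1.

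PRKD1, the founding member of the PKD family, which has been tied to aldosterone output in H295R cells, was lower in all pairs. Its probe set 205880_at read 179.0, 412.6 and 550.7 after 8-Br-cAMP, against 466.0, 567.9 and 643.9 in controls. The lowest value was that of 8-Br-cAMP sample 1, and the groups overlapped. The pair differences were -1.38, -0.46 and -0.23. The mean of -0.69 had a 95% interval of -1.72 to 0.34 and a limma adjusted p of 0.650, with a paired adjusted p of 0.216. Without 8-Br-cAMP sample 1 alone the difference was -0.22, and without 8-Br-cAMP sample 3 it was -1.03. On samples 2 and 3 alone the difference was -0.34 (-0.72 to 0.032, adjusted p = 0.146). Its second probe set, 217705_at, read at most 16.6 and was not kept.

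PRKD3 gave readings that did not move together on its kept probe sets. On 218236_s_at it read 1106.8, 2004.0 and 1967.7 after 8-Br-cAMP, against 2359.3, 1907.3 and 2270.6 in controls. Only 8-Br-cAMP sample 1 stood clearly apart, and the difference of -0.41 (95% interval -1.12 to 0.30, limma adjusted p = 0.705) was -0.068 (-0.33 to 0.20) on samples 2 and 3 alone and -0.13 without 8-Br-cAMP sample 1. On 211084_x_at, whose suffix marks probes that may match other transcripts too, it read 358.5, 523.7 and 550.3 after 8-Br-cAMP, against 330.8, 511.6 and 506.5 in controls. There each treated array exceeded its control slightly, by a mean of 0.090 (-0.63 to 0.81, adjusted p = 0.952). Its interval on samples 2 and 3 alone was -0.20 to 0.35, and both intervals stop short of a 2-fold change. The interval from samples 2 and 3 rests on 2 arrays a group and may measure only technical spread.

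**Figure D2:**
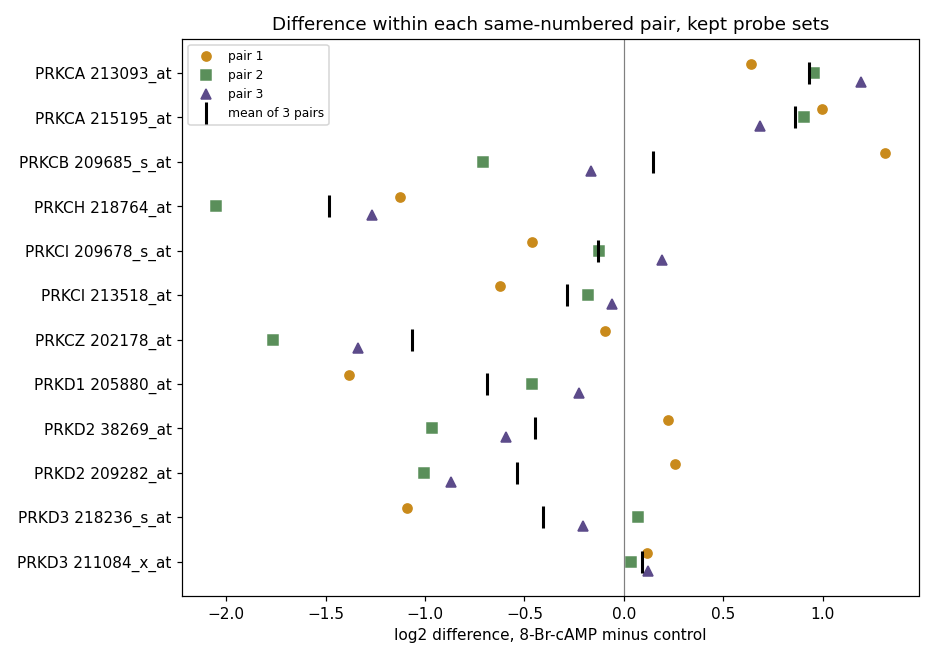
Log2 difference of 8-Br-cAMP minus control within each same-numbered pair for the 12 kept probe sets, with a black bar at the mean of 3 pairs. PRKCA lies right of 0 and PRKCH left of 0 in all pairs, whereas for PRKCZ and PRKD2 pair 1 lies near or right of 0 and pairs 2 and 3 lie left of it.

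On samples 2 and 3 alone, 6 of the 12 kept probe sets passed limma at an adjusted p under 0.05, against 30.8% of all 13329. The 2 higher were both kept probe sets of PRKCA, against 12.1% of all. The 4 lower belonged to PRKCZ, PRKD2 (both probe sets) and PRKCH, the last kept through its controls alone, against 18.7% of all. That comparison rests on 2 arrays a group, which correlated at 0.980 after 8-Br-cAMP and at 0.961 in controls, so its p-values may measure only technical spread. The kept probe sets of PRKCB, PRKCI, PRKD1 and PRKD3 did not pass it.

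**Figure D3:**
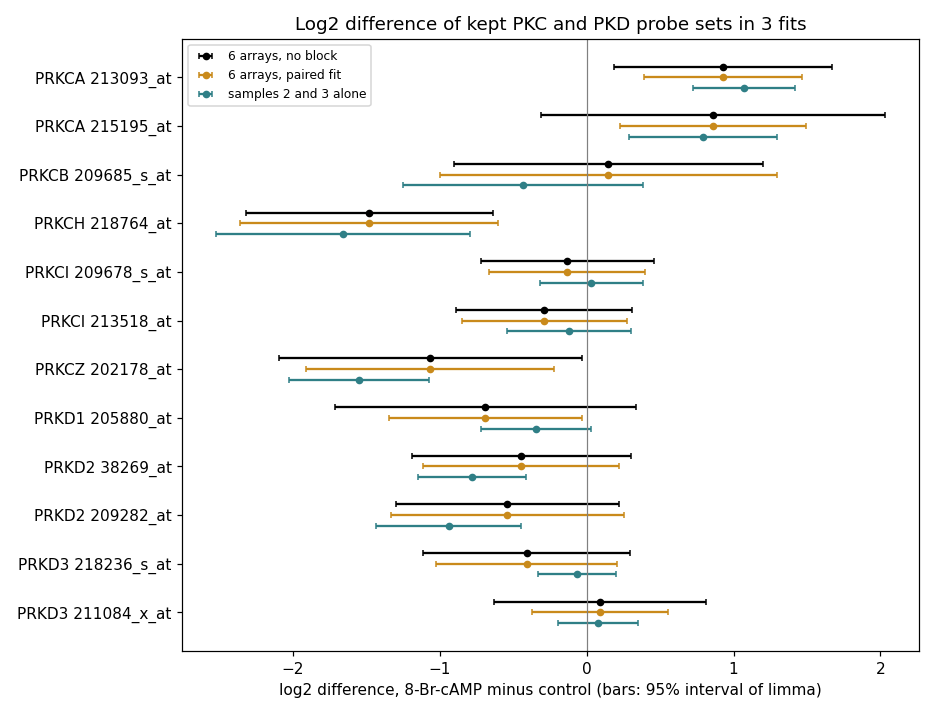
Log2 difference of 8-Br-cAMP minus control with limma's 95% interval for the 12 kept probe sets, from all 6 arrays without a block (black), from all 6 with the sample number as a block (ochre) and from samples 2 and 3 alone (teal). The teal intervals of PRKCA, PRKCH, PRKCZ and PRKD2 lie clear of 0, and those of PRKCI and PRKD3 are narrow and cross it.

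The selection described for the series combined a mean change of 2-fold or more with an unadjusted p below 0.05. By limma without a block it took PRKCH and PRKCZ, 2 of the 12 probe sets, against 6.6% of all. By the methods' t-test it took PRKCH alone, 1 of the 12 against 4.57% of all, and after Benjamini-Hochberg adjustment that test took 0 of the 12 (0.0075% of all). PRKCH was kept through its controls alone, so neither count supports a difference. The PRKCA probe set 213093_at, at 1.90-fold, fell short of the fold limit.

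The genes around these kinases were read from 8 lists holding 98 genes, of which 84 have a single-symbol probe set and 56 were kept. Of the 56, 2 were kept through their controls alone (PLCE1 and GAP43) and 2 through their treated arrays alone (PLCG2 and DGKG). Counts that hold them are descriptions. Without the block 0 of the 56 passed limma at an adjusted p under 0.05, and 5 had an unadjusted p under 0.05 (8.93%, beside 11.9% of all kept genes). In the paired fit 1 was higher and 1 was lower, against 1.73% and 1.96% of all 7927 kept genes. On samples 2 and 3 alone, 4 were higher and 15 lower, against 12.8% and 20.5% of all genes. Groups did not overlap in 11 of the 56 (19.6%), beside 19.9% of all kept genes. The median log2 difference of the 56 was -0.12, beside -0.14 for all kept genes.

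Upstream of the kinases, AGTR1, the angiotensin II receptor, was under the filter, at 46.6, 22.3 and 24.2 after 8-Br-cAMP and 34.5, 50.4 and 23.5 in controls. None of the 8 kept receptor and G protein genes passed with or without the block. F2R, the thrombin receptor, read 63.9, 168.4 and 114.6 after 8-Br-cAMP, against 194.5, 35.6 and 24.0 in controls. Of the 3 fits it passed only that on samples 2 and 3 (2.25, adjusted p = 0.00338). Both F2R controls in that fit lay under the filter level, so the size is imprecise and these values are a description. The count of higher genes on samples 2 and 3 holds F2R and is a description too. GNB2 (-0.47) and GNB1 (-0.28), which encode beta subunits of G proteins, did not pass on 6 arrays (log2 differences, adjusted p = 0.681 and 0.784). On samples 2 and 3 alone GNB2 passed (adjusted p = 0.0159) and GNB1 did not (0.347).

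Among 5 kept phospholipase C genes, PLCB1, the effector of Gq, read 91.6, 86.6 and 95.9 after 8-Br-cAMP, against 208.1, 235.8 and 181.0 in controls. The groups lay far apart and the pairs agreed, with a log2 difference of -1.18 (limma adjusted p = 0.149, and 0.0577 in the paired fit). PLCE1, an effector of Ras, read 76.7, 36.7 and 24.7 after 8-Br-cAMP, against 118.6, 115.9 and 92.1 in controls (-1.40, adjusted p = 0.327). PLCB1 passed on samples 2 and 3 alone (adjusted p = 0.00505). PLCE1 had an adjusted p of 0.0110 there, but it was kept through its controls alone. PLCG2, which signals from tyrosine kinases, differed by 0.48 on the log2 scale (adjusted p = 0.715). It was kept through its treated arrays alone, so these values are a description.

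Of 9 kept genes that remove diacylglycerol or make it from phosphatidic acid, PLPP3 rose in the paired fit. This lipid phosphatase of the cell surface read 559.9, 794.7 and 831.0 after 8-Br-cAMP, against 203.8, 121.6 and 152.1 in controls. Every treated array exceeded every control, by a mean of 2.21 on the log2 scale, or 4.61-fold (paired adjusted p = 0.0198, and 0.0702 without the block). The paired call ended with a common median (adjusted p = 0.0542) and without the intensity trend (0.0584). Its relative PLPP1 read 430.2, 233.3 and 203.7 after 8-Br-cAMP, against 1462.6, 327.8 and 371.9 in controls, and did not pass on 6 arrays (-1.04, paired adjusted p = 0.106). On samples 2 and 3 alone both PLPP3 (adjusted p = 2.4e-05) and PLPP1 (0.0131) passed. DGKG, a diacylglycerol kinase, differed by 0.95 (adjusted p = 0.740). It was kept through its treated arrays alone, so these values are a description.

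ADD3, which encodes gamma-adducin, a PKC substrate of the spectrin skeleton, fell in the paired fit as the 1 of 11 kept substrate genes. It read 85.6, 75.7 and 84.1 after 8-Br-cAMP, against 416.5, 188.9 and 202.1 in controls, with no overlap (-1.62, paired adjusted p = 0.0437, and 0.170 without the block). That call ended after quantile normalization (adjusted p = 0.0848), with a common median (0.111) and without the trend (0.0759). On samples 2 and 3 alone ADD3 passed (adjusted p = 0.00274). The substrate genes PEBP1, lower (-0.98, adjusted p = 0.00610), and RDX, higher (0.58, adjusted p = 0.00488), passed there too. The growth cone protein gene GAP43, kept through its controls alone, differed by -0.60 and ADD2 by 0.39, and neither passed. CHN1, a Rac-inactivating protein that binds diacylglycerol, read 17.6, 134.2 and 171.8 after 8-Br-cAMP, against 546.5, 266.1 and 316.7 in controls (-2.28, adjusted p = 0.378). The size of that difference rested on pair 1, at -4.96 beside -0.99 and -0.88 in pairs 2 and 3. On samples 2 and 3 alone CHN1 passed (adjusted p = 0.00792). UNC13B, the other kept gene of its list, differed by 0.45.

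No gene passed with or without the block among 9 kept genes of PKC maturation and anchoring or 10 kept PKD targets. PHLPP1, a phosphatase of the hydrophobic motif of PKC, was lower on every treated array, at 292.2, 330.9 and 332.0 after 8-Br-cAMP against 401.9, 434.3 and 529.4 in controls (-0.51, adjusted p = 0.518). YWHAB (-0.27) and the anchoring protein gene AKAP12 (-0.56) passed neither with nor without the block. On samples 2 and 3 alone PHLPP1 (adjusted p = 0.0258) and AKAP12 (0.0278) passed and YWHAB (0.0954) did not. SSH1, a cofilin phosphatase that PKD inhibits, read 166.0, 141.2 and 143.0 after 8-Br-cAMP, against 241.0, 207.6 and 213.0 in controls (-0.56, adjusted p = 0.455). It passed on samples 2 and 3 alone (adjusted p = 0.0386). HDAC7, a class II histone deacetylase that PKD sends out of the nucleus, differed by 0.88 on average, with 2.09 in pair 1 and 0.047 in pair 3, and KIDINS220 by -0.56. Of the remaining PKC relatives, PRKCQ read 52.1, 54.2 and 35.8 after 8-Br-cAMP against 69.1, 73.6 and 74.2 in controls (-0.63), and PKN2 differed by -0.59. In both the groups did not overlap and neither passed (adjusted p = 0.578 and 0.526).

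**Figure D4:**
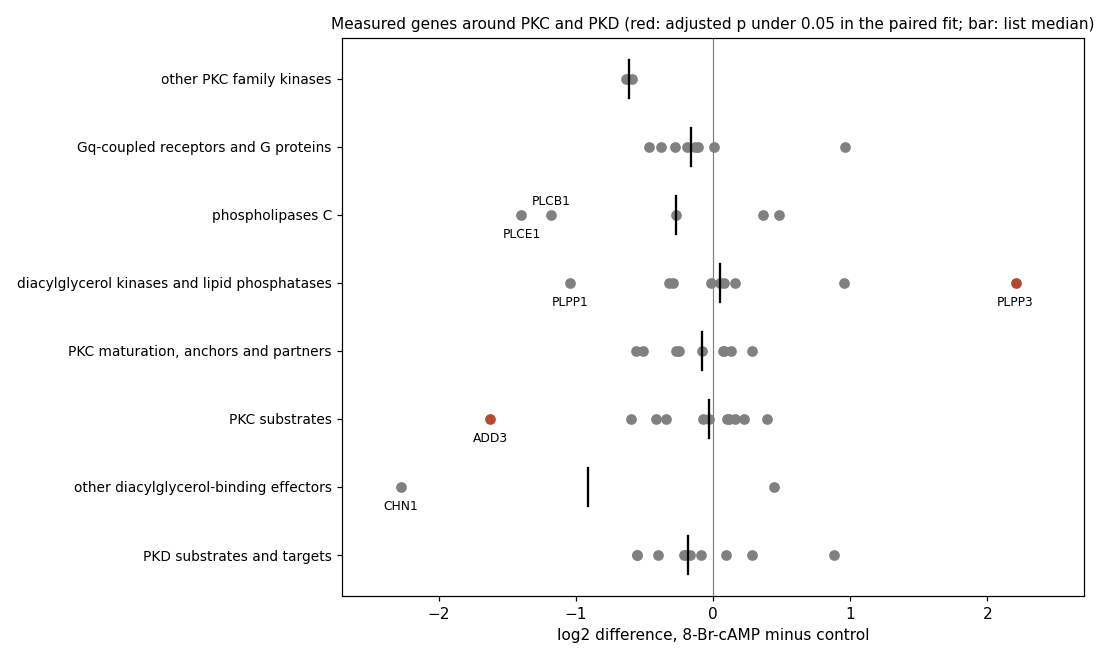
Log2 difference of 8-Br-cAMP minus control for the 56 kept genes around PKC and PKD, by list, with a black bar at each list's median and names for genes past 1 in size. PLPP3 at 2.21 and ADD3 at -1.62, in red, are the genes that passed the paired fit.

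The genes most like each isoform over the 6 arrays were named by Pearson's r of log2 signal among 7926 other kept genes, as a description with no test. With so many genes and 6 arrays a high r is easily met. PRKCA was closest to ZNF394 (0.998) and DKK1 (0.995), and PRKCH to LIMK2 (0.996) and PCDHB13 (0.990). PRKCZ was closest to MPPE1 (0.995) and MUC4 (0.994), and PRKD2 to SYBU (0.997) and MCAM (0.993). PRKD1 was closest to SMC6 and C2orf68 (both 0.994), PRKD3 to PCMTD2 (0.994) and STAG2 (0.992), and PRKCB to SUPT6H (0.990) and ZNF669 (0.986). PRKCI had the loosest match, with RNF34 (0.932) and TAF4 (0.922).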

How the data were processed

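GCOS 1.3 produced the linear signal intensities that the authors deposited for each array, per the submitters' processing notes. The 2% trimmed mean of every array was 249.996 to 250.155, so they were used as scaled. The table has 22277 rows, of which 62 are array controls. Intensities were taken to log2, and probe sets with a mean above the 40th percentile were tested with limma 3.58.1 in R 4.3.3 (intensity trend, two-sided, Benjamini-Hochberg over all kept probe sets). Without another tool named, each adjusted p is limma's. Same-numbered arrays deviated together (r of 0.603, 0.378 and 0.538 for numbers 1, 2 and 3, all above 0.1), so the numbers were taken as pairs. 8-Br-cAMP 2 with control 3 (0.547) and 8-Br-cAMP 3 with control 2 (0.312) deviated together too, so the data set number 1 apart but do not tell 2 from 3. That pairing is read from the data, since no label states it. Per list, up to 3 genes with the smallest p were named, with any that passed with or without the block. The 2 genes most alike per isoform were named too. Genes that passed only on samples 2 and 3 alone were not all named. Members, lists and rules were chosen with earlier results of these data known. The fits were also run on simulated data with sample-number effects and independent normal noise of the same size on every array. Such data do not model an array like 8-Br-cAMP sample 1, and no result here rests on them. Detection calls and protein sequences were not used here.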

Additional observations from a re-analysis of the deposited data

How the results depend on the processing

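In the fit with no block, none of the PKC and PKD probe sets tested (0) passed under quantile normalization, a common median, no filter, a 60th percentile filter, a floor, a pseudocount of 16, and eBayes without trend or with robust variances, and likewise under each with the replicate block. With 1 array or 1 pair left out 0 to 6 passed, and 6 without both number 1 arrays. The methods' t-test took 0 after adjustment, and 1 before it at 2-fold or more. The pair-1 array of the treated group decides PRKCZ, as given above. The replicate block changed no call of a PKC or PKD probe set. Of the genes around them 0 passed, and with the replicate block 2 did, with 1 after quantile normalization, 0 with a common median, 2 to 3 in the other combinations but 0 without trend, 19 without both number 1 arrays, and 0 to 20 with 1 array or pair left out. Over all probe sets, 0 passed without the block, 17 after quantile normalization and with a common median, 18 with the stricter filter, 24 with the floor, 28 with the pseudocount, 1 by the t-test after adjustment and 609 before it at 2-fold. With the replicate block 428 passed, and with it combined as above 337, 142, 440, 484 and 548, then 406 with no filter, 81 without trend and 408 with robust variances. Leaving out both number 1 arrays gave 4103, 1 array 0 to 285, and pair 1 with the block 4680. Leaving out pair 2 or pair 3 with the block gave fewer than the 428 of all pairs. Leaving out pairs with the block was chosen after seeing the data. A common median moved the median of all probe sets to 0.094, against -0.13 as deposited, and that of the 12 to -0.12, against -0.35. It moved the split of paired calls to 103 higher and 39 lower, against 207 and 221. Signs turned for PRKCB 209685_s_at (-0.44 without both number 1 arrays, and -0.44 to 0.57 with 1 array or pair left out), for PRKCI 209678_s_at (0.093 with a common median with or without the block, 0.032 without both number 1 arrays, and -0.29 to 0.032 with 1 array or pair left out) and for PRKD3 211084_x_at (-0.12 to 0.28 with 1 array or pair left out). The cause was not tested. Signals near the filter level limit PRKCD, PRKCE and PRKCH most.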
